A study of Mus musculus with 10 samples.

Results

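The genes described here encode 9 subunits of activator protein 1 (AP-1) or close relatives: Fos, Fosb, Fosl1, Fosl2, Jun, Junb, Jund, Atf3 and Maff. They were chosen by gene symbol, and all 9 were found among the 17945 named genes of the deposited table. Their RNA was measured by sequencing in pancreatic islets of C57BL/6 mice aged 18 weeks, in 5 control and 5 knockout libraries. The knockouts carried floxed Grk5 alleles together with Pdx1-CreER, a tamoxifen-activated Cre recombinase expressed from the Pdx1 promoter, which is active in insulin-producing β cells. The controls carried the floxed alleles and, per their label, no Cre driver. All groups therefore shared the floxed Grk5 alleles. Neither the tamoxifen dosing nor the number of animals behind a library is in the labels, so the tests below cover the spread between libraries, which may be technical. The labels do not give the sex of the mice, and the Y-linked gene Ddx3y was between 408 and 1089.8 normalized counts in every library.

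AP-1 is a dimer of basic leucine zipper proteins. A Fos protein must pair with a Jun protein to bind DNA well, whereas Jun proteins can also pair with each other, and ATF and small MAF proteins form further dimers in the same family. Fos, Fosb, Junb, Atf3 and Jun are early response genes: their transcription starts within minutes of a calcium rise, a growth factor, a kinase signal or cell stress, and the RNAs are short-lived. In β cells, glucose and depolarization induce several of them, and the handling of islets during isolation is a known inducer as well.

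The sequences before the start sites of the early response members are shown because cyclic AMP response elements (CRE) near the start are a known route by which calcium and cyclic AMP reach these genes. RefSeq promoter windows on GRCm38.p6 matched 8 of the 9 members, with none for Fosl1. Each printed sequence holds the 250 bases before the RefSeq start, 5′ to 3′ on the strand of the gene. Capitals mark the CRE core TGACG, read on either strand, and the variant CRE TGACATCA. The windows are chr12:85473640-85473889 (plus strand) for Fos, chr7:19310046-19310295 (minus) for Fosb, chr4:95052223-95052472 (minus) for Jun, chr8:84978749-84978998 (minus) for Junb and chr1:191183334-191183583 (minus) for Atf3.
Fos: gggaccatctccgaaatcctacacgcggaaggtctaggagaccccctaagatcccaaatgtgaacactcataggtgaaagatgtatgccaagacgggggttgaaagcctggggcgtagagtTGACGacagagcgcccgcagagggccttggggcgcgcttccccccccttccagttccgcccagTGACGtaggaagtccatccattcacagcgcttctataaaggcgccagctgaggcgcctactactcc
Fosb: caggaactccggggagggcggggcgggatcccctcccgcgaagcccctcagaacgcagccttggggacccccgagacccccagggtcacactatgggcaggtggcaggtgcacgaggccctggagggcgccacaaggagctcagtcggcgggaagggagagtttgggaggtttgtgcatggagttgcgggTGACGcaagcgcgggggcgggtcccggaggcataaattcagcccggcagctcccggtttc
Jun: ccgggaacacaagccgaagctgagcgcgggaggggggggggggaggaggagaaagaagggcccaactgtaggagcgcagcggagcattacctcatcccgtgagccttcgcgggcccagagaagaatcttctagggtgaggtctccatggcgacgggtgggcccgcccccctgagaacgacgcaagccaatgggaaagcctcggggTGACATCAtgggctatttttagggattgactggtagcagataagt
Junb: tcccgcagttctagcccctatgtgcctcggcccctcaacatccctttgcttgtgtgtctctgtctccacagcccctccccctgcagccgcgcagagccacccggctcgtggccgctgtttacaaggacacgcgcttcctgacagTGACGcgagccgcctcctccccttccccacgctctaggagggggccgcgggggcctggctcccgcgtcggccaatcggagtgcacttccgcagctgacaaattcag
Atf3: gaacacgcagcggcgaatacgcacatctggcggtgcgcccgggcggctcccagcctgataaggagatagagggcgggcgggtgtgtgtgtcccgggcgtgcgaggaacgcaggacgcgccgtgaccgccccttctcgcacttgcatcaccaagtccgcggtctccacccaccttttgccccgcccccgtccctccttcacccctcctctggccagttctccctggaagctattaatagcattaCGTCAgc

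The core TGACG lay 66 to 62 bases before the Fos start, with another copy at 129 to 125 bases. It lay 60 to 56 bases before the start of Fosb and 106 to 102 bases before that of Junb. In Atf3 it was read on the opposite strand, 7 to 3 bases before the start. Jun held the variant TGACATCA 45 to 38 bases before its start. Maff, for which RefSeq lists 3 starts, held the full CRE, TGACGTCA, 29 to 22 bases before 1 of them. Before another it held TGACATCA at 45 to 38 bases and the core, read on the opposite strand, at 122 to 118 bases. Neither Fosl2 nor Jund held any of the 3 in its window, but those windows end at RefSeq starts that lie 671 and 1210 bases from the GENCODE gene starts and may not sit at the start of the RNA measured. The Atf3 window belongs to a start 34706 bases from the outermost GENCODE one. Of all 32851 promoter windows cut to the same 250 bases, 17.8% held TGACG, 1.55% held TGACGTCA and 2.93% held TGACATCA. The core is part of the full element, so these matches overlap. Those shares are per window, and Maff had 3 windows. The usual letters of an AP-1 site, TGANTCA, and the serum response element known as the CArG box were in none of the members' windows. They were in 6.75% and 1.47% of all windows. Sites more than 250 bases before a start lie outside these windows, so a gene may hold them there. TGACATCA, held by Jun and Maff, differs from TGANTCA in length and was counted only as a variant CRE. These matches describe letters and were not tested as binding sites.

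The deposited normalized counts are on a scale shared by the libraries, their totals ran from 5534386 to 7358040 a library, and 10222 (knockout 1) to 14632 (knockout 3) genes were above 0. The number of reads behind a value is not known here. Ins1 and Ins2 took 12.3% to 17.8% of each total, and all 12 islet endocrine markers were above 0 in every library. Grk5, the targeted gene, did not separate the groups: it ran from 128 to 387 in controls and from 94.4 to 269.8 in knockouts, with a log2 fold change of -0.55 ± 0.42 (SE) and an adjusted p of 0.955 by limma. These are whole-gene values over all islet cells, so cells in which the driver did not act contribute to them. Esr1, which encodes the estrogen receptor whose ligand-binding domain forms the ER part of CreER, was between 1517 and 3177 in all knockouts and at most 10.5 in controls 1, 3 and 4. It was 2495 in control 2 and 773 in control 5, which goes against their label. The fold changes of the 9 genes are therefore also given without the libraries labelled controls 2 and 5.

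Levels were first compared between the genes, per kilobase of the spliced principal transcript in GENCODE M21. Jun had the highest median over the 10 libraries, 1526 normalized counts per kilobase, followed by Fosb (1192) and Fos (1004). Jund, Junb and Atf3 had medians of 709, 691 and 679. Their order differed by group: control means were 867 for Junb, 799 for Atf3 and 775 for Jund, and knockout means were 688 for Jund, 507 for Junb and 486 for Atf3. Maff (185), Fosl2 (106) and Fosl1 (15.9) were far lower. Most neighbours in this order were not separated by library: Jun exceeded Fosb in 6 of 10 libraries, Fosb exceeded Fos in 8, Fos exceeded Jund in 7, Jund exceeded Junb in 6, Junb exceeded Atf3 in 5, Atf3 exceeded Maff in 8 and Maff exceeded Fosl2 in 7. Fosl2 exceeded Fosl1 in all 10. Jun, Junb and Jund each have a single exon in their principal transcript, so spliced and unspliced RNA of these genes cannot be told apart.

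**Figure D1:**
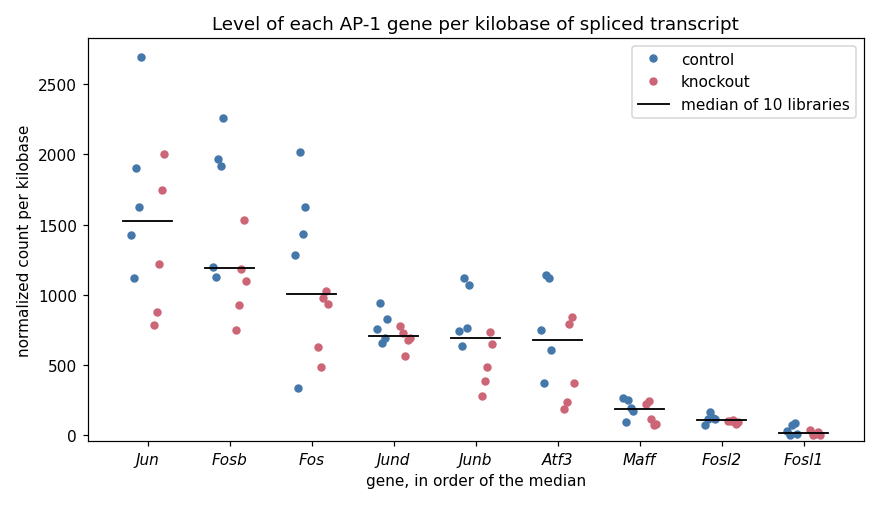
Normalized count per kilobase of spliced transcript (vertical axis) for each AP-1 gene, ordered by the median of 10 libraries (line). Points are single libraries of the control and knockout groups. Jun, Fosb and Fos had the highest medians (1526, 1192 and 1004), and Fosl1 the lowest (15.9).

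The genes together made up 3766 to 9396 normalized counts per kilobase in a library. The 4 Fos genes took 33.4% to 45.5% of that sum and the 3 Jun genes 38.7% to 56.7%. In control 2 Fos took 7.15% of the sum, against 12.1% to 21.7% in the other 9 libraries, so that the ratio of Fosb to Fos per kilobase was 3.32 there and 0.937 to 1.92 elsewhere. The ratio of Jun to Junb averaged 2.00 ± 0.33 in the controls and 2.61 ± 0.33 in the knockouts (SD, n = 5 each). The groups overlapped in this ratio, with controls from 1.71 to 2.51 and knockouts from 2.30 to 3.10. It was picked out after its values were seen and was not tested.

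The comparison of knockouts with controls asked whether the level of these genes in islets differs between the labelled groups. All knockouts carried the Cre driver and the controls, per their label, did not. Effects of the driver and of Grk5 loss therefore cannot be told apart. All 9 genes had lower means in the knockouts, with a median log2 fold change of -0.57 on the log2(value + 8) scale, beside -0.03 over all 11711 genes tested. On that scale 52.4% of all genes tested were lower in the knockouts. The members were chosen with earlier results of these data known, so their shared direction was not tested. None of the 9 passed an adjusted p of 0.05 by limma, and 0% of all genes tested did. At an unadjusted p under 0.05 by limma, 2 of the 9 were lower, Junb and Fosb, and 0 were higher, where 2.66% of all genes tested were lower and 2.36% higher. No member had groups without overlap, a pattern seen in the lower direction for 0.427% of all genes tested. In whole islets, fewer cells of a type and less RNA per cell cannot be told apart.

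**Figure D2:**
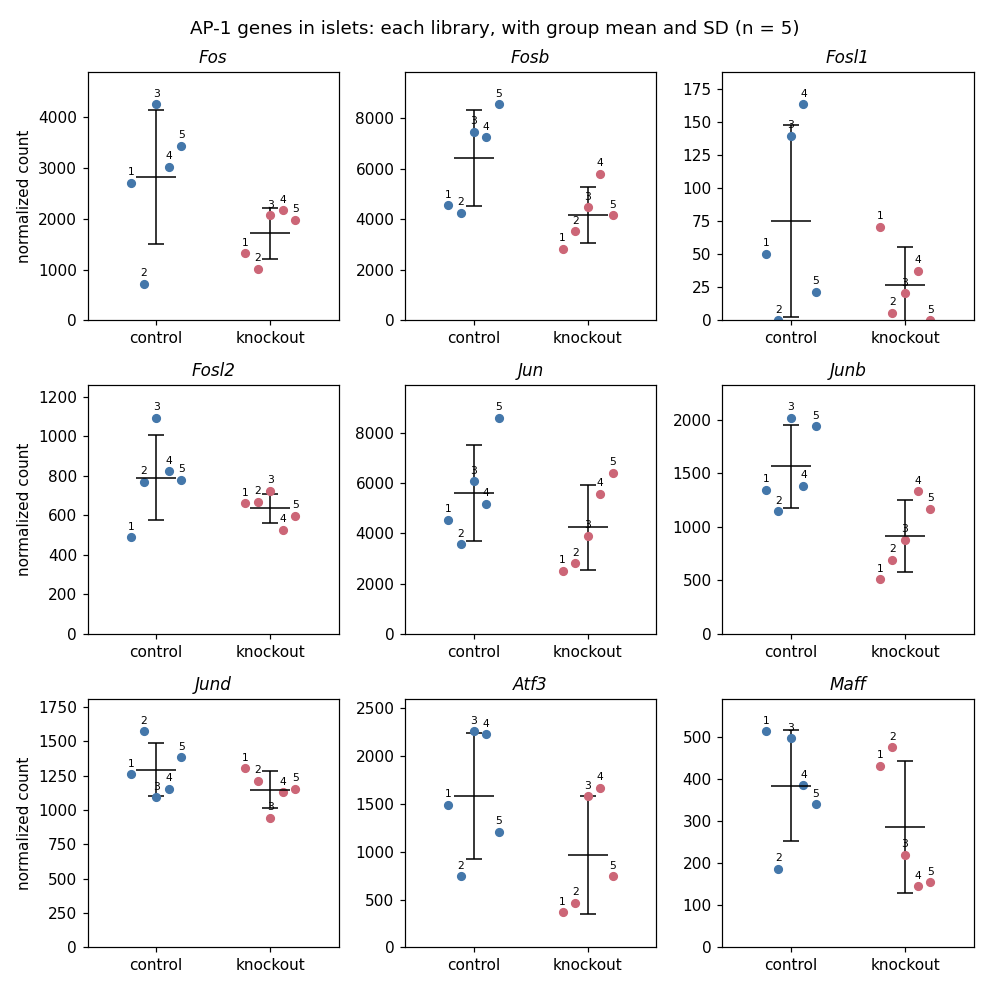
Normalized count (vertical axis, from 0, a separate scale for each gene) of the AP-1 genes in the control and knockout libraries. Points are libraries with their replicate number, and bars give the mean and SD of 5. In every panel the highest knockout lies above the lowest control.

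Among the Jun genes, Junb differed most between the groups. JunB pairs with Fos proteins and is often a weaker activator than Jun. Junb (chromosome 8, 84974484 to 84978718, GRCm38) was 1350.0, 1144, 2020.4, 1384 and 1940.1 normalized counts in the 5 controls, taken in order, and 511, 693, 879, 1332 and 1170.2 in the 5 knockouts. Knockouts 1, 2 and 3 lay below every control, while knockouts 4 and 5 lay above control 2. The means were 1568 ± 389 and 917 ± 336 (SD, n = 5 each). The log2 fold change was -0.82 ± 0.26 (SE; unadjusted p = 0.00526 and adjusted p = 0.942 by limma). The 95% limits were -1.36 to -0.27. In the authors' deposited table it was -0.77, at an adjusted p of 0.462.

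Jun, the founding member of its family and a substrate of the JNK kinases, was 4550.2, 3564, 6075, 5179.8 and 8597 in the controls, in order, and 2499, 2809.6, 3897, 5576 and 6398 in the knockouts. Knockouts 1 and 2 were the lowest of the 10 libraries, but knockouts 4 and 5 lay above 3 of the controls or more. The log2 fold change was -0.43 ± 0.29 (SE, 95% limits -1.07 to 0.20, adjusted p = 0.942 by limma). It was -0.26 without control 5 and -0.27 without knockout 1. Jund, which is transcribed in resting cells and is less inducible than the others, ran from 1092 to 1572 in controls (median 1259) and from 943 to 1303 in knockouts (median 1152). Its log2 fold change was -0.17 ± 0.18 (SE, 95% limits -0.55 to 0.22), and was -0.09 without control 2 and -0.10 without knockout 3. Jund also varied least between libraries of a group, with a within-group SD of 0.19 on the log2 scale, against 0.47 for Junb, 0.54 for Jun and a median of 0.84 over all genes tested.

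Of the Fos genes, Fosb was the one with an unadjusted p under 0.05. It encodes full-length FosB and, by splicing, the stable ΔFosB, which gene-level values do not distinguish. Fosb (chromosome 7, 19302696 to 19310051) was 4543, 4258, 7454, 7241 and 8544 in the controls, in order, and 2829, 3521, 4470.3, 5789.7 and 4149.9 in the knockouts. Controls 3, 4 and 5 stood above every knockout, and controls 1 and 2 fell among them. The means were 6408 ± 1901 and 4152 ± 1110.4 (SD, n = 5 each), and the log2 fold change -0.61 ± 0.21 (SE; unadjusted p = 0.0119 and adjusted p = 0.942 by limma), with 95% limits of -1.07 to -0.16. In the authors' deposited table it was -0.63, at an adjusted p of 0.571.

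Fos, the partner of Jun in classical AP-1, was 2702, 715, 4249, 3026 and 3429 in the controls, in order, and 1319, 1020.05, 2067, 2167 and 1977 in the knockouts. Of the controls, 4 lay above all knockouts, and control 2 was the lowest of the 10 libraries. The log2 fold change was -0.57 ± 0.45 (SE, adjusted p = 0.955 by limma), with 95% limits of -1.55 to 0.42. Without control 2 it was -1.01, with unadjusted p = 0.000436 and adjusted p = 0.435 by limma. Without control 3 it was -0.37 (unadjusted p = 0.421 by limma). The adjusted p of Fos by limma ran from 0.435 (without control 2) to 0.998 over the alternatives tried.

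Fosl2, which encodes Fra-2, was 489 to 1094 in controls (median 778) and 527 to 722 in knockouts (median 660.3), at a log2 fold change of -0.27 ± 0.24 (SE). Control 1 was the lowest library for it, and the other 4 controls lay above every knockout. Without control 1 the log2 fold change of Fosl2 was -0.43, and without control 3 it was -0.15. Fosl1, which encodes Fra-1, was low throughout and was listed at 0 in control 2 and knockout 5. Its other controls were 50.3, 139.7, 164 and 21.5, and its other knockouts 71.0, 5.59, 20.6 and 37.6. Its log2 fold change of -0.99 ± 0.89 (SE) had 95% limits of -2.85 to 0.87, the widest of the 9 genes. It was -1.66 without control 2, -0.61 without control 3, -0.56 without control 4 and -0.57 without knockout 5.

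Atf3 and Maff are the members outside the Fos and Jun families. Atf3 encodes a stress-induced factor that represses as a homodimer and pairs with Jun proteins. It was 1489.5, 743, 2259, 2225 and 1205 in the controls, in order, and 367, 468, 1578, 1666 and 744 in the knockouts. Knockouts 1 and 2 were the lowest of the 10 libraries, and knockouts 3 and 4 lay above 3 of the controls. The log2 fold change was -0.86 ± 0.45 (SE, unadjusted p = 0.0782, adjusted p = 0.942 by limma), with 95% limits of -1.82 to 0.11. Maff encodes a small MAF protein, which lacks an activating domain of its own. It was 514, 187, 498, 386 and 341 in the controls, in order, and 433, 476, 221, 146 and 155 in the knockouts. Knockouts 1 and 2, which were low for Fos, Fosb, Jun, Junb and Atf3, were the highest knockouts for Maff. Its log2 fold change was -0.51 ± 0.40 (SE, 95% limits -1.34 to 0.32), and was -0.32 without knockout 4 and -0.34 without knockout 5.

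Without the libraries labelled controls 2 and 5, which leaves 3 controls, the median log2 fold change of the 9 genes was -0.84. At an unadjusted p under 0.05 by limma, 5 of the 9 were then lower (Fos, Fosb, Fosl1, Junb and Atf3), where 2.27% of the 11013 genes tested were. Fos was at -0.99 ± 0.26, Junb at -0.84 ± 0.31, Atf3 at -1.27 ± 0.46, Fosb at -0.63 ± 0.22 and Fosl1 at -2.15 ± 0.88 (SE). Jun was at -0.40 ± 0.28 and Jund at -0.03 ± 0.21. None of the 9 passed the adjusted threshold in this fit, and the lowest adjusted p by limma was 0.779 (Fos). Of all genes tested 0.00908% passed, which was Esr1 alone, the gene whose values led to the omission of those controls. Every knockout lay below the 3 remaining controls for Fos and for Junb, a pattern that held for 2.03% of all genes tested in these libraries.

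**Figure D3:**
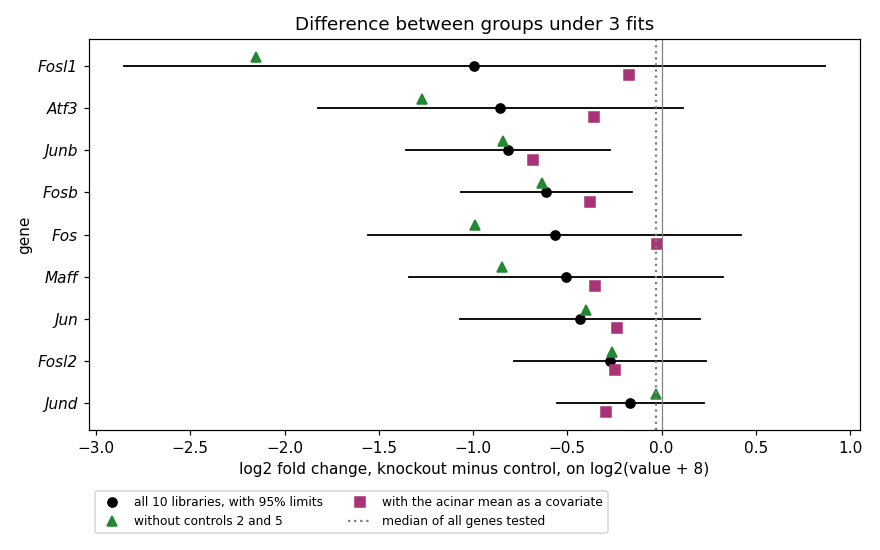
Log2 fold change (horizontal axis, knockout minus control on log2(value + 8)) of each AP-1 gene. Circles with lines give the fit to all 10 libraries with 95% limits, triangles the fit without the libraries labelled controls 2 and 5, and squares the fit with the acinar mean as a covariate. The limits exclude 0 for 2 genes, Junb and Fosb, and the square for Fos lies at -0.02.

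The 9 genes did not vary as one block across libraries. Of 36 pairs, 27 had a Pearson r above 0 on log2(value + 8), with a median r of 0.28. After each group's mean was taken away, the median r of the 36 pairs was 0.12. With p-values from 100000 permutations adjusted over 45 relations (these pairs and the 9 described with the acinar markers), 4 pairs had an adjusted p under 0.05 for r. Fosb and Junb had r = 0.91 (permutation p = 0.00018, adjusted p = 0.0081) and rho = 0.93 (adjusted p = 0.0135), and r was 0.84 without the 2 libraries farthest from the Fosb median. Jun and Junb had r = 0.89 (adjusted permutation p = 0.0146) and rho = 0.81 (adjusted p = 0.0575), Fosb and Jun r = 0.84 (adjusted permutation p = 0.0412) and rho = 0.73 (adjusted p = 0.0943), and Fosb and Atf3 r = 0.81 (adjusted permutation p = 0.0470) and rho = 0.79 (adjusted p = 0.0575). Without the 2 farthest libraries these were 0.79, 0.73 and 0.91. Within groups, by the same step, r was 0.84 for Fosb and Junb, 0.93 for Jun and Junb, 0.82 for Fosb and Jun and 0.74 for Fosb and Atf3. Within groups Jund went opposite to Atf3 (r = -0.86) and Fos (r = -0.75), where r over all libraries was -0.46 and -0.47 (adjusted permutation p = 0.379 and 0.374) and rho -0.65 and -0.33 (0.152 and 0.577). Without the 2 farthest libraries r was -0.45 for Jund and Atf3 and 0.00073 for Fos and Jund, so the latter rests on those libraries, control 2 and knockout 2. Jund had its highest r, 0.06, with Maff, and Fosl2 its highest, 0.47, with Fosb.

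**Figure D4:**
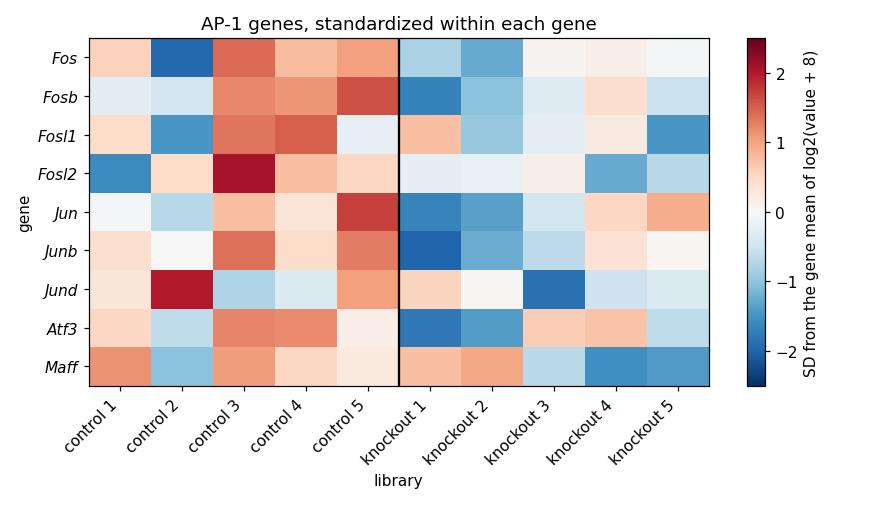
Each AP-1 gene (rows) in each library (columns), as SD from that gene's mean of log2(value + 8), red for higher and blue for lower. Controls are left of the line. Knockouts 1 and 2 are blue for Fos, Fosb, Jun, Junb and Atf3 and red for Maff, and control 2 is the lowest library for Fos.

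Library by library, control 3 was among the 2 highest for 7 of the 9 genes and control 5 for 5. Knockout 2 was among the 2 lowest for 5 genes and knockout 1 for 4. Knockout 1 was also the library with the fewest genes above 0. Without knockout 1 the median log2 fold change of the 9 was -0.49, with Junb at -0.63 and Fosb at -0.48. The part of depth in these values was not tested.

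The genes whose pattern over the 10 libraries was most like the mean of the 9 standardized genes were ranked by Pearson r among the other 11702 genes tested. The 8 highest were Tomm20 (r = 0.94), a mitochondrial import receptor gene, Aldh18a1 (0.92), which acts in proline synthesis, the early response genes Nr4a1 (0.92), Errfi1 (0.89) and Egr1 (0.87), the fatty acid receptor gene Ffar1 (0.88), Fut10 (0.88) and Rbpjl (0.87), a transcription factor gene of acinar cells. Nr4a1 had control and knockout means of 1701 ± 459 and 989 ± 326, and Egr1 of 3291 ± 1052 and 2152 ± 912 (SD, n = 5 each). Fut10 and Rbpjl were low, with medians of 29.1 and 11.4 normalized counts. These values of r are the highest of many and describe these libraries.

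Markers of acinar cells, the digestive enzyme-producing cells around islets, varied with Fos across the libraries. Of 19 acinar markers tested, 18 were lower in the knockouts, with a median log2 fold change of -0.88. The summed level of all 21 ran from 23036 to 294045 normalized counts in controls and from 34018 to 92144 in knockouts. Of the defining markers, Ptf1a was listed at 0 in 8 libraries, Prss1 and Rbpjl in 3 each and Amy1 in 1. Try5, a trypsinogen gene, was the marker with an unadjusted p under 0.05, at -1.51 ± 0.51 (SE, unadjusted p = 0.0157, adjusted p = 0.942 by limma). By that rule 2.66% of all genes tested were lower. Fos correlated with the mean log2 value of these markers at r = 0.80 (adjusted permutation p = 0.0470) and rho = 0.83 (adjusted p = 0.0525), and r was 0.79 without the 2 farthest libraries and 0.77 after removal of group means. Atf3 had r = 0.74 and rho = 0.68 (adjusted permutation p = 0.0636 and 0.117), Fosb r = 0.71 and rho = 0.77 (0.0863 and 0.0679), and Junb r = 0.52 and rho = 0.70 (0.293 and 0.116). Jund had r = -0.42 (adjusted permutation p = 0.426). Its r was -0.08 without the 2 farthest libraries and -0.76 after removal of group means.

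With the acinar mean as a covariate in limma, the median log2 fold change of the 9 was -0.30 and all 9 remained below 0. Fos was then at -0.02 ± 0.30 (SE), with 95% limits of -0.66 to 0.61. Fosb was at -0.38 ± 0.20, Atf3 at -0.36 ± 0.37, Jun at -0.24 ± 0.29, Maff at -0.36 ± 0.45, Fosl2 at -0.25 ± 0.28 and Fosl1 at -0.17 ± 0.92. Jund moved the other way, from -0.17 to -0.30 ± 0.20. Junb was at -0.68 ± 0.29 (SE, unadjusted p = 0.0307, adjusted p = 0.998 by limma), and was the only one of the 9 with an unadjusted p under 0.05 in this fit, where 1.72% of all genes tested were lower by that rule.

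**Figure D5:**
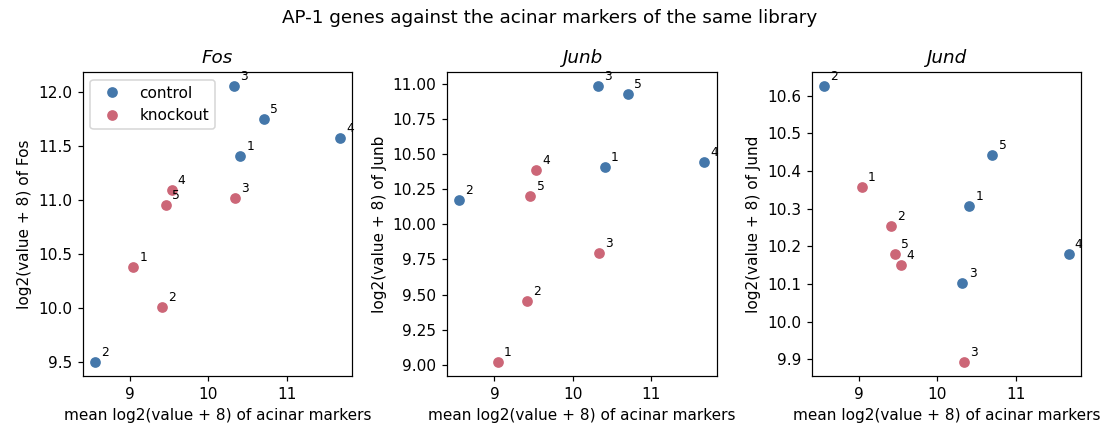
Log2(value + 8) of Fos, Junb and Jund (vertical axes, separate scales) against the mean log2(value + 8) of the acinar markers (horizontal axis) in the same library. Points are libraries with their replicate number. Pearson r over the 10 libraries was 0.80 for Fos, 0.52 for Junb and -0.42 for Jund.

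The medians of other cell types lay nearer 0. Of 6 ductal markers tested 3 were lower (median 0.07), of 10 endothelial markers 3 (median 0.10), of 7 stromal markers 3 (median 0.01) and of 7 immune markers 5 (median -0.12), and none passed the adjusted threshold by limma. At an unadjusted p under 0.05 by limma there were 0 in any of these 4 lists. Their summed levels overlapped between groups: ductal 1143 to 1557 in controls and 1140.1 to 2497 in knockouts, endothelial 2519 to 3334 and 3029 to 3821, stromal 794 to 1087 and 815 to 967, and immune 557 to 1003 and 626 to 1281. The smallest p-values were those of Krt7 (0.54 ± 0.26, log2 fold change with SE) and Spp1 (0.73 ± 0.46) among the ductal genes, Tek (-1.11 ± 0.64) and Kdr (0.37 ± 0.22) of the endothelial ones, Pdgfrb (-0.88 ± 0.75) and Col3a1 (-0.55 ± 0.58) of the stromal ones, and Cd74 (-0.36 ± 0.29) and Ptprc (0.87 ± 0.94) of the immune ones. For Kdr every knockout lay above every control (471 to 621 in controls, 637 to 767 in knockouts). Of all genes tested 0.435% separated in that direction. Of the 12 islet endocrine markers 11 were lower, with a median of -0.17. Slc2a2, the β-cell glucose transporter gene, had an unadjusted p of 0.0103 at -0.49 ± 0.17 (SE, adjusted p = 0.942 by limma).

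The genes around AP-1 were described from 3 further lists. Of 20 upstream kinases and inducers tested, 12 were lower and 8 higher (median -0.07), and none passed the adjusted threshold by limma. At an unadjusted p under 0.05 by limma, 2 were lower and 2 higher, where 2.66% of all genes tested were lower and 2.36% higher. Srf, the serum response factor that drives Fos and other early response genes, was 1150.1, 1307, 875, 926 and 1025 in the controls, in order, and 703, 708, 581, 699 and 732 in the knockouts. Its groups did not overlap, as for 0.427% of all genes tested in the lower direction, and the log2 fold change was -0.61 ± 0.20 (SE, unadjusted p = 0.00795, adjusted p = 0.942 by limma). Control 2, the lowest library for Fos, was the highest for Srf. Map3k1, a kinase upstream of JNK, had means of 749 ± 456 in controls and 365 ± 247 in knockouts (SD over 5 libraries), at -1.09 ± 0.42 (SE). Higher in the knockouts were Mapk14, the p38α kinase, at 0.79 ± 0.35, and Map2k1, which activates ERK, at 0.81 ± 0.37 (SE), with every knockout above every control for Mapk14 (119 to 233 in controls, 241 to 607 in knockouts). Such a separation in the higher direction was seen for 0.435% of all genes tested.

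Of 18 other basic leucine zipper genes tested, which encode possible dimer partners or relatives, 14 were lower and 4 higher (median -0.15), with 0 passing by limma at an adjusted or an unadjusted p of 0.05. The smallest p-values were those of Creb1 (447 ± 187 in controls, 262 ± 127 in knockouts) and Cebpd (343 ± 125 and 219 ± 132; SD, n = 5 each). Of 25 genes listed as AP-1 targets in other systems, 12 were tested, with 9 lower and 3 higher (median -0.21). Dusp1, a phosphatase that inactivates JNK and p38, was the target with an unadjusted p under 0.05: it was 539, 363, 422, 559 and 409 in the controls, in order, and 112, 123, 295, 151 and 525 in the knockouts, at -1.14 ± 0.39 (SE, unadjusted p = 0.00970, adjusted p = 0.942 by limma). Knockout 5 lay among the controls for Dusp1 and the other 4 knockouts below them. Of all genes tested 2.66% were lower at an unadjusted p under 0.05 by limma.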

How the data were processed

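The authors deposited normalized counts per gene, a signal unit that is not whole reads: in each library, 22.6% to 33.6% of nonzero values came out as multiples (within 0.01) of the commonest low value, so a count test was not used. STAR 2.4.0.1, HTSeq and DESeq2 are listed, with no role, per the submitters' processing notes, which name no genome build or annotation. Per the labels' protocols, RNA was depleted of ribosomal RNA and libraries were made with a stranded random-primed kit. The strand setting of the counting was not given. The authors' deposited table also holds log2 fold changes, their errors, p-values and a score, quoted only where named.

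Of 17946 rows, 1 without a gene name (0.00774% to 0.0251% of a library) was left out. Genes with a value of at least 10 in at least 5 libraries (11711) went into limma 3.58.1 (R 4.3.3) on log2(value + 8), with trend and robust variance and Benjamini-Hochberg adjustment over all of them at 0.05. Fold changes on this scale understate those of low genes. The steps were tested on simulated data. Positions and lengths are from GENCODE M21 (GRCm38), which may not be the authors' build. Correlations used Python 3.11.15, numpy 2.4.6 and 2-sided permutation tests. Named were the 9 genes, Grk5, Esr1, Ins1 and Ins2, the genes of each list with an unadjusted p under 0.05 or else the 2 smallest, and the 8 most alike. Other genes were chosen for mention once their values had been seen. The members and lists were chosen with earlier results of these data known.

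Alternatives were pseudocounts of 1 and 32, 3 scalings, no filter or a minimum of 50, no trend or robust variance, quality weights, the acinar covariate and omission of libraries.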

Additional observations from a re-analysis of the deposited data

How the results depend on the processing

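Over 21 alternatives, every one of the 9 genes that was tested stayed lower in the knockouts, and none of the 9 passed the adjusted threshold by limma. Fosl1 was not tested with a minimum of 50. The median of the 9 ran from -0.84 without controls 2 and 5 to -0.30 with the acinar covariate, and from -0.74 (without control 2) to -0.40 (without control 3) with single libraries left out. The number of the 9 lower at an unadjusted p under 0.05, 2 over all libraries, was 1 without trend and robust variance (Junb; 2.60% of all genes tested were lower by that rule), 1 with the acinar covariate (Junb; 1.72% of all) and 5 without controls 2 and 5 (2.27% of all). With single libraries left out it ran from 2 to 4, and the share of all genes tested from 2.16% to 3.23%. The 4 were Fos, Fosb, Junb and Atf3 without control 2 (2.83% of all). Over all genes, the number passing the adjusted threshold was 1 without trend and robust variance (Commd8) and 1 without controls 2 and 5 (Esr1). Esr1 was the gene whose values led to the omission of those controls. With single libraries left out the number ran from 0 to 1 (Ppp4r1l-ps without control 1). The causes of these shifts were not tested. Scalings left the median of all genes between -0.04 and -0.01. No paired analysis was possible because the labels carry no replicate numbers shared between groups. The number of reads behind each value is not known here, so counting error could not be given for low genes such as Fosl1.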

Other observations

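In GENCODE M21, 5 of the 9 genes overlap a gene on the opposite strand. The table held 2 of those 5 overlapping genes. Prdx2, a peroxiredoxin gene whose span meets that of Junb, ran from 259 to 654 normalized counts, with a control mean of 360 ± 67.9 and a knockout mean of 415 ± 148 (SD over 5 libraries). Ccdc85b, which meets Fosl1, ran from 0 to 463. Reads from such a pair cannot be told apart where counting ignores the strand. Within groups, on normalized counts, no library of the 9 genes stood apart from the other 4 by Dixon's criterion at its 95% level (0.71 of the range). This covered 18 groups of 5, where chance marks about 1 in 20. The result does not carry over to the log2 scale of the fits, on which low values lie farther out. Control 2 was such a case for Fos, at 715 against 2702 to 4249 in the other controls. Without it the log2 fold change of Fos moved from -0.57 to -1.01. Control 2 was also the library with the lowest acinar mean.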
